A study of Mus musculus with 12 samples.

Results

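The neurotrophin genes described here are Bdnf, Ntrk2, Ntrk3, Ntf3, Ngfr and Nrn1. They were taken by name, as the rows of the deposited count table whose mouse Ensembl identifier, read without its version, maps to these 6 symbols. All 6 were found among the 47069 rows of the table, and all 6 were among the 17286 genes with enough counts to be tested. The study sequenced RNA from the frontal cortex of male mice on a C57BL/6 background in 12 libraries, 3 in each of 4 groups. One pair of groups is labelled wild type and received either vehicle or clozapine, given chronically at 10 mg/kg, an antipsychotic drug that binds many monoamine receptors. The other pair carries Hdac2, the gene of a histone deacetylase, as HDAC2(loxP,loxP) together with CamKIIa-Cre(+,-), and received the same vehicle or dose. CamKIIa-Cre acts in excitatory neurons of the forebrain, so interneurons, glia and vessel cells of these mice are not expected to recombine the gene. The age of the mice, the length of the treatment and whether the wild-type mice carry loxP sites or Cre are not given in the sources used here. The libraries are named by group and by the number in their title.

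Neurotrophins are secreted proteins that support the survival of neurons and adjust their synapses. Brain-derived neurotrophic factor (BDNF), from Bdnf, binds the receptor tyrosine kinase TrkB, from Ntrk2, and neurotrophin-3, from Ntf3, binds mainly TrkC, from Ntrk3. The p75 receptor, from Ngfr, binds all neurotrophins and their uncleaved precursors, and neuritin, from Nrn1, is a membrane-anchored protein that promotes the growth of neurites and is induced by neuronal activity. In cortex Bdnf is made mainly by excitatory neurons and rises with their activity, while Ntrk2 is made by neurons in a full-length form and by astrocytes in a form that lacks the kinase. Counts per gene add these forms together, and in RNA from whole tissue fewer cells of a type and less RNA per cell cannot be told apart.

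Total counts per library ranged from 23408372 to 28069638. Hdac2 itself was not lower in the libraries labelled knockout, at 63.4 to 75.7 CPM (counts-per-million, the scaled unit used below) in wild-type vehicle, 72.4 to 75.5 in wild-type clozapine, 73.3 to 76.6 in knockout vehicle and 70.5 to 73.9 in knockout clozapine. A count over the whole gene does not show whether single exons are deleted, so the genotype is written as labelled and every genotype direction rests on the labels. Wild-type vehicle 3 held 53.3 CPM of Ttr, a transcript of the choroid plexus, against at most 4.15 CPM in each other library, and leaving it out ended many calls: 141 genes passed for clozapine in wild type with it and 20 without it, and 1584 and 617 between the genotypes on vehicle. Tests are edgeR's quasi-likelihood test over all 17286 genes with Benjamini-Hochberg (BH) adjustment, and a gene is said to have passed, risen or fallen where the adjusted p is under 0.05. Each of the 12 libraries was also left out in turn. Where that library is in neither group compared, the log2 change stays almost the same, so a call kept there says little. Members and lists were chosen with earlier results of these data known.

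Bdnf is transcribed from several promoters, each of which joins its own 5′ exon to a shared coding exon, and the counts do not separate them. RefSeq (GRCm38.p6) lists 7 starts for Bdnf, 1 for Ntrk2, 2 for Ntf3 and 1 for Ngfr, and windows of 250 bases before each start were searched on both strands for TGACGTCA, the cAMP response element, for its core TGACG and for the E-box CACGTG. The windows shown are those of the first and the third Bdnf start, 17736 bases apart, and of the only Ntrk2 start, since both genes passed a test on vehicle. Ntrk3 passed there too, but the starts used here hold none for Ntrk3 or Nrn1, so their windows were not searched. Each runs 5′ to 3′ along the gene's strand and ends just before the start, with capitals for a match.
Bdnf, the first start, chr2:109674450-109674699, plus strand: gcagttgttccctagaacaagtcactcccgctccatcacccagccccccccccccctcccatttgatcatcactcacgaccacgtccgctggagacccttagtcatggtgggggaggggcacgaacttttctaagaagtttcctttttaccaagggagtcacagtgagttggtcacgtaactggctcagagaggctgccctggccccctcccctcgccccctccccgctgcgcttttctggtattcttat
Bdnf, the third start, chr2:109692186-109692435, plus strand: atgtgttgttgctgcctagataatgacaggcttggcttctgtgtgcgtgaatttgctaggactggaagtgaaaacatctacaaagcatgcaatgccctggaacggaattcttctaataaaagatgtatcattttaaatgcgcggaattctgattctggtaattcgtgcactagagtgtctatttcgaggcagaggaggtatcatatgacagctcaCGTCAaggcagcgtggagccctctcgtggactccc
Ntrk2, chr13:58806319-58806568, plus strand: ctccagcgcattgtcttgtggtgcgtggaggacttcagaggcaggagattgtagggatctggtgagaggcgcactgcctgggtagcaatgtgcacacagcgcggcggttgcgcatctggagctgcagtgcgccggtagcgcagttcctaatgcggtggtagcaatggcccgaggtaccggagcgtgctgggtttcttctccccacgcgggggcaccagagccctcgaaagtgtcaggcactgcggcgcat

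The window at the third Bdnf start holds the core TGACG, read on the minus strand, beginning 35 bases before the start. It was the only 1 of the 7 Bdnf windows with that core, which 17.8% of 32841 windows of the same length over all genes hold. Of all windows 1.55% hold TGACGTCA and 6.02% hold CACGTG, and neither was found in a Bdnf, Ntrk2 or Ngfr window. The first of the Ntf3 windows holds 1 CACGTG. These matches describe letters in the windows and were not compared with binding or with transcript forms.

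Per kilobase of exon the 6 genes covered a wide range. Nrn1 was the highest, at a mean of 128 RPKM (CPM per kilobase of exon) over the 12 libraries, with a range of 113 to 138. Ntrk2 followed at 31.4 RPKM, between 25.7 and 36.3, and the 2 genes did not overlap in any library. Bdnf, at 3.95 to 7.51 RPKM, and Ntrk3, at 3.24 to 5.01 RPKM, overlapped, so their order is not set by these libraries. The exon length of Ntrk3 adds up many transcript forms, 30170 bases in all, which lowers its value per length. Ntf3, at 0.202 to 0.484 RPKM, and Ngfr, at 0.126 to 0.417 RPKM, were the lowest and also overlapped. They rest on 9 to 20 and 10 to 34 counts per library, so for these 2 genes counting error alone is large.

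Of the other ligands of the family, Ntf5, the gene of neurotrophin-4, had 2 to 12 counts per library and was too low to test. Cholinergic neurons of the basal forebrain, whose fibres reach the cortex, carry neurotrophin receptors. The summed level of the 3 tested markers of those neurons was 1.41 to 2.42 CPM over all libraries.

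**Figure D1:**
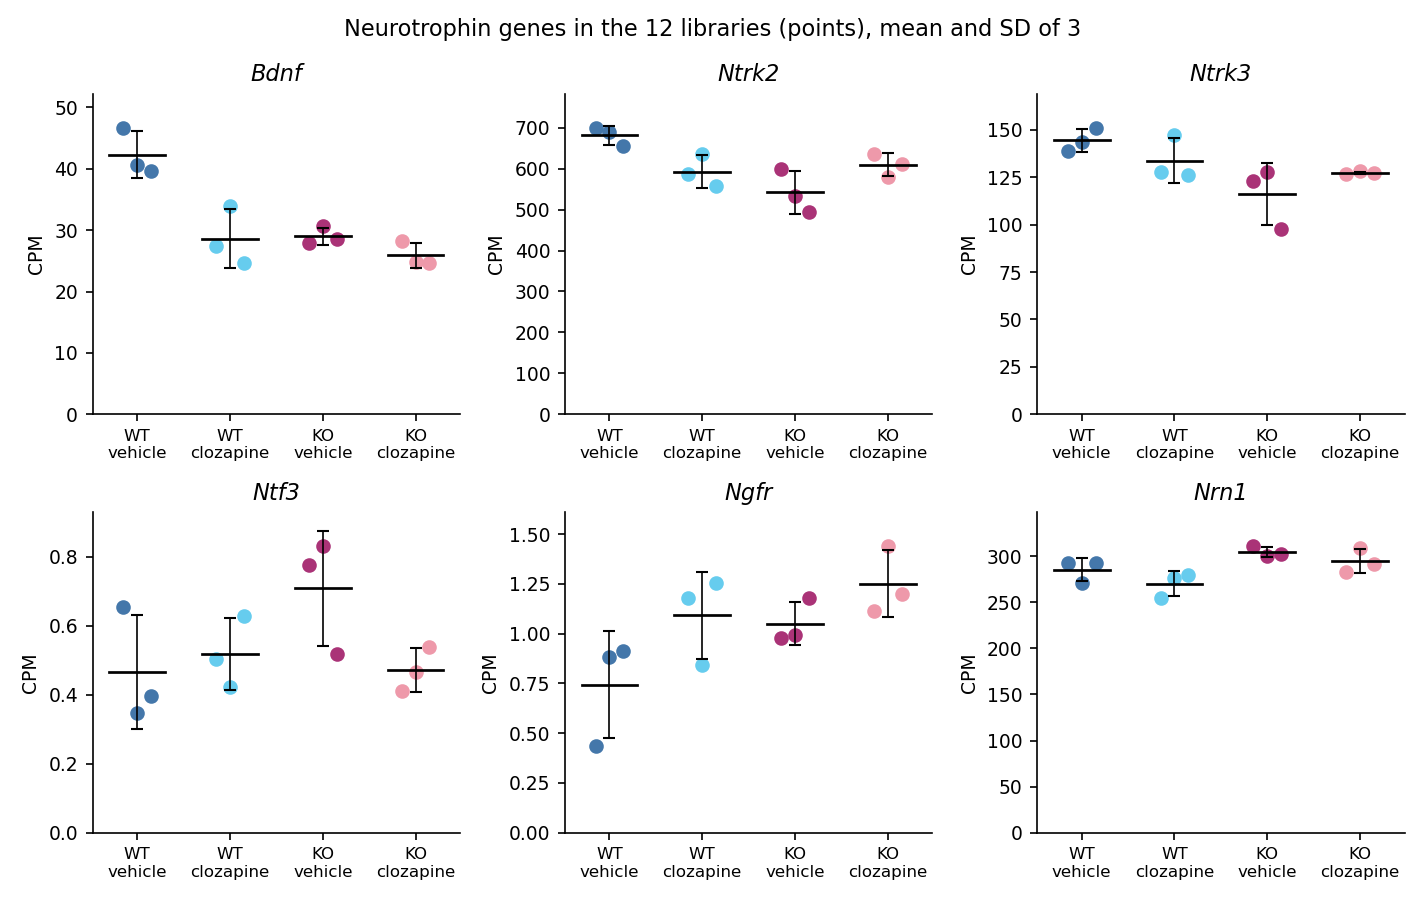
Expression in CPM (y axis, from 0) of the 6 genes in each of the 12 libraries (points), with the mean and SD of 3 libraries in each of the 4 groups on the x axis (WT, wild type; KO, labelled knockout). The 3 wild-type vehicle libraries lie above the 9 others for Bdnf (39.7 against at most 33.9 CPM) and Ntrk2 (655 against at most 636.5 CPM). The share of all genes with such a split was not counted.

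Bdnf was the member that differed most clearly, and it was highest in wild-type mice on vehicle. In wild-type vehicle 1, 3 and 4 Bdnf (ENSMUSG00000048482.14, chr2:109674700-109727007, GRCm38) stood at 46.7, 40.6 and 39.7 CPM. In wild-type clozapine 2, 3 and 5 it stood at 27.4, 33.9 and 24.6 CPM. The libraries knockout vehicle 2, 4 and 5 read 28.0, 30.6 and 28.5 CPM of Bdnf, and the libraries knockout clozapine 3, 4 and 5 read 28.2, 24.9 and 24.6 CPM. Every wild-type vehicle library was thus above every one of the 9 others, and the 3 other groups overlapped. How many of all genes split in this way was not counted.

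In wild-type mice Bdnf fell with clozapine, from 42.3 ± 3.80 to 28.6 ± 4.76 CPM (SD, n = 3 each). The log2 change was -0.56 (SE 0.10, 95% interval -0.78 to -0.35, edgeR adjusted p = 0.015), a drop of 32.3%. It was the only 1 of the 6 genes past the threshold in this comparison, in which 0.625% of all tested genes fell and 0.191% rose. The call is close to the threshold: with wild-type vehicle 1 or 3 left out the adjusted p rose to 0.066 and 0.064, and with clozapine library 2 or 5 of the wild type left out to 0.062 and 0.068. A fit of these 2 groups alone gave 0.058. Without wild-type clozapine 3, the library nearest to the vehicle level, the log2 change was -0.70 (adjusted p = 0.0023).

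In the labelled knockout the mean of Bdnf was 29.0 ± 1.41 CPM on vehicle against 25.9 ± 2.0 CPM on clozapine (SD, n = 3 each), and the libraries overlapped. The log2 change was -0.16 (SE 0.10, 95% interval -0.38 to 0.05, edgeR adjusted p = 0.56). In this comparison 0 of the 6 genes passed, where 0.0116% of all genes rose and 0.0116% fell by edgeR. There were 2117 genes at an unadjusted p under 0.05, 1 of the 6 (Ntrk2) among them, and DESeq2 called 274 genes, also with 0 of the 6 among them. The difference between the clozapine effects in both genotypes was tested directly as an interaction. For Bdnf it was 0.40 on the log2 scale (SE 0.14, 95% interval 0.10 to 0.70), with an unadjusted p of 0.013 and an edgeR adjusted p of 0.23. The fall in wild type is therefore not shown to differ from the change in the labelled knockout.

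Between the genotypes on vehicle, Bdnf was lower in the labelled knockout. The log2 difference was -0.54 (SE 0.10, 95% interval -0.76 to -0.33, edgeR adjusted p = 0.0041), or 31.4% lower. This call held in all 12 tests that left out 1 library, with adjusted p values from 0.00074 to 0.023. With clozapine in both genotypes the difference was -0.14 (SE 0.10, edgeR adjusted p = 0.54). The comparisons in which Bdnf passed, the averaged one below included, all use the same 3 wild-type vehicle libraries, so they are not independent of each other. Averaged over both treatments, Bdnf was lower in the labelled knockout by 0.34 on the log2 scale (edgeR adjusted p = 0.0068), although the 6 and 6 libraries overlapped. Averaged over both genotypes the clozapine effect on Bdnf was -0.36, with an edgeR adjusted p of 0.058, above the threshold. DESeq2 put it at 0.0012, and without wild-type clozapine 3 edgeR put it at 0.0085.

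**Figure D2:**
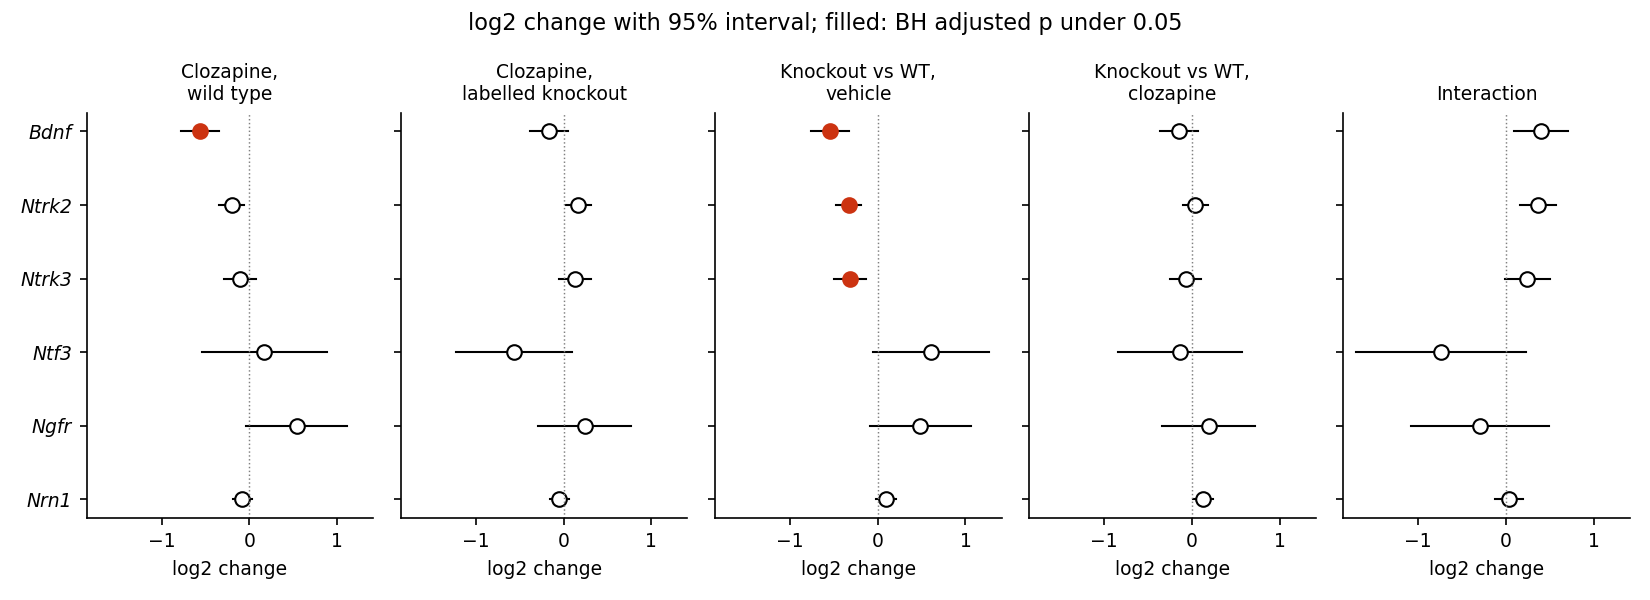
The log2 change of each of the 6 genes (rows) with its 95% interval in 5 comparisons (panels), where a filled point has a BH adjusted p under 0.05 by edgeR. Bdnf is filled for clozapine in wild type, and Bdnf, Ntrk2 and Ntrk3 for labelled knockout against wild type on vehicle, all on the lower side.

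The receptor genes Ntrk2 and Ntrk3 were also lower in the labelled knockout than in wild type on vehicle. Ntrk2 (ENSMUSG00000055254.14, chr13:58806569-59133970) read 699.8, 689 and 655 CPM in the wild-type vehicle libraries 1, 3 and 4. Knockout vehicle 2, 4 and 5 read 599, 534 and 495 CPM. These groups did not overlap, and the log2 difference was -0.33 (SE 0.07, 95% interval -0.47 to -0.19, edgeR adjusted p = 0.0069), which held in all 12 tests without 1 library (0.0039 to 0.034).

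With clozapine the mean of Ntrk2 lay between these levels in both genotypes. Wild-type clozapine 2, 3 and 5 had 587, 636 and 557 CPM, and knockout clozapine 3, 4 and 5 had 636.5, 579.8 and 613 CPM, so these groups overlapped. The log2 change with clozapine was -0.20 in wild type (SE 0.07, edgeR adjusted p = 0.21) and 0.17 in the labelled knockout (SE 0.07, edgeR adjusted p = 0.31). The signs of the 2 effects were opposite. Their difference was 0.37 (SE 0.10, 95% interval 0.17 to 0.57), with an unadjusted p of 0.0013 and an edgeR adjusted p of 0.094. It passed with DESeq2 (adjusted p = 0.017), without a filter on low counts (0.0092) and without knockout vehicle 2 (0.048), and was at 0.25 (adjusted p = 0.245) once length and GC content of the genes were corrected for. By edgeR 0.526% of all genes had a higher and 0.127% a lower clozapine effect in the labelled knockout.

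Ntrk3 (ENSMUSG00000059146.12, chr7:78175959-78738012) read 139, 144 and 151 CPM in the wild-type vehicle libraries and 123, 128 and 97.8 CPM in those of knockout vehicle, in library order. The groups did not overlap, with knockout vehicle 5 well under the others. The log2 difference was -0.31 (SE 0.08, 95% interval -0.49 to -0.13, edgeR adjusted p = 0.031). Without knockout vehicle 5 it was -0.20 (adjusted p = 0.076), and the call also ended without wild-type vehicle 1 (0.055), 3 (0.096) or 4 (0.087). It ended too in a fit of the 2 groups alone (0.067) and after the correction for length and GC content (log2 difference -0.18, adjusted p = 0.085).

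With clozapine Ntrk3 ranged from 126 to 147 CPM in wild type and from 126.8 to 128 CPM in the labelled knockout, whose 3 libraries were nearly equal. Its log2 change with clozapine was -0.11 in wild type (edgeR adjusted p = 0.68) and 0.13 in the labelled knockout (edgeR adjusted p = 0.57). In total 3 of the 6 genes were lower in the labelled knockout on vehicle and 0 were higher. Of all tested genes 5.15% were lower and 4.01% higher in that comparison. On clozapine 0 of the 6 genes passed between the genotypes by edgeR, where 1.48% of all genes were higher and 0.515% lower. In that comparison 2740 genes had an unadjusted p under 0.05, among them 1 of the 6, Nrn1, and DESeq2 called 560 genes with 0 of the 6 among them.

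**Figure D3:**
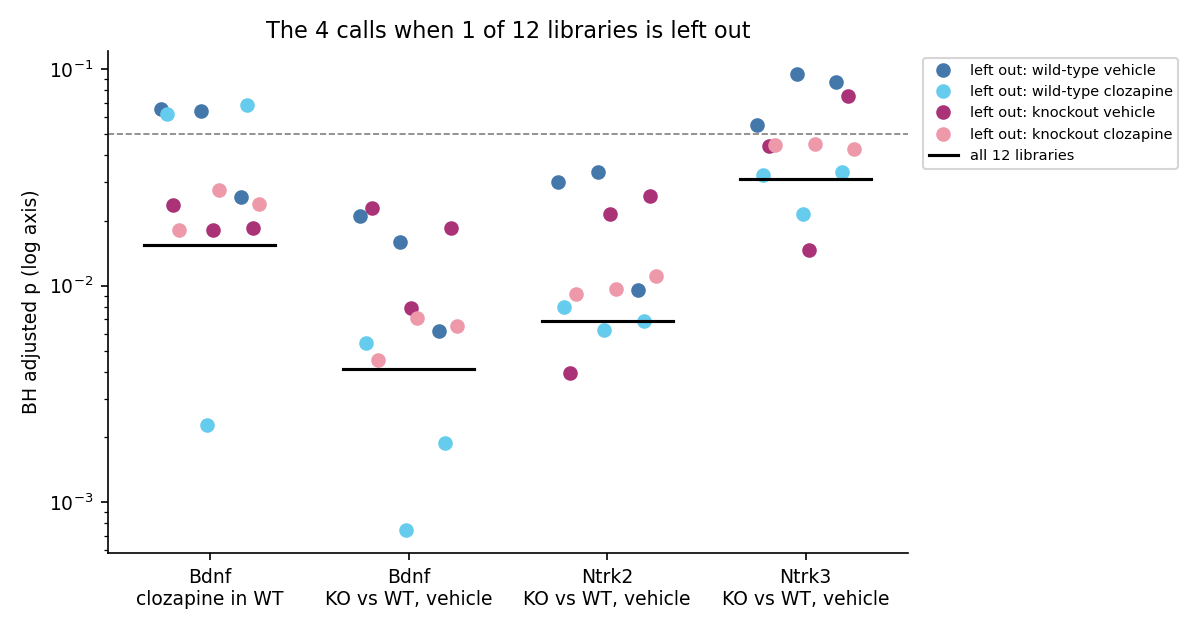
BH adjusted p (y axis, log scale) of the 4 calls named on the x axis, in 12 edgeR fits that each leave out 1 library (points, coloured by the group of the library left out), with the value of all 12 libraries as a black bar and 0.05 as a dashed line. Bdnf and Ntrk2 on vehicle stay under 0.05 throughout, up to 0.023 and 0.034, while 4 points cross the line for Bdnf with clozapine and 4 for Ntrk3.

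Nrn1, the neuritin gene, varied little. Nrn1 (ENSMUSG00000039114.15, chr13:36725361-36735131) read 293, 271 and 292.5 CPM in the wild-type vehicle libraries, in library order, and 254, 276 and 279 CPM after clozapine. The labelled knockout read 311, 300.5 and 302 CPM on vehicle and 283, 309 and 291 CPM on clozapine. The libraries labelled knockout were higher without overlap under each treatment. The log2 difference was 0.09 on vehicle (SE 0.05, edgeR adjusted p = 0.31), 0.13 on clozapine (SE 0.05, adjusted p = 0.25) and 0.11 averaged over both (SE 0.04, 95% interval 0.03 to 0.19, adjusted p = 0.073), and none of these passed. Its 95% interval for clozapine in wild type ran from -0.19 to 0.03, so a fall of the size seen for Bdnf lies outside it. Nrn1 shares 501 exonic bases with Fars2 on the opposite strand, which was at 15.5 to 18.3 CPM in all libraries.

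Ntf3 and Ngfr, the gene of p75, were too low for their differences to be resolved. Ntf3 (ENSMUSG00000049107.13, chr6:126101412-126166910) read 0.65, 0.35 and 0.40 CPM in the wild-type vehicle libraries (9 to 15 counts) and 0.78, 0.83 and 0.52 CPM in those of knockout vehicle (15 to 20 counts). The log2 difference between these genotypes was 0.60, with a 95% interval from -0.06 to 1.26 (edgeR adjusted p = 0.26). With clozapine Ntf3 lay between 0.42 and 0.63 CPM in wild type and between 0.41 and 0.54 CPM in the labelled knockout.

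Ngfr (ENSMUSG00000000120.6, chr11:95568818-95587735) read 0.44, 0.88 and 0.91 CPM in the wild-type vehicle libraries and 1.18, 0.84 and 1.25 CPM after clozapine. The labelled knockout read 0.98, 1.0 and 1.18 CPM on vehicle and 1.11, 1.44 and 1.20 CPM on clozapine. Wild-type vehicle 1, with 10 counts, was the lowest of all 12. The log2 change with clozapine in wild type was 0.54, with a 95% interval from -0.04 to 1.11 (edgeR adjusted p = 0.47), and that between the genotypes on vehicle was 0.49 (interval -0.08 to 1.06, adjusted p = 0.29). Both intervals reach from just under 0 to a rise of more than 1 on the log2 scale.

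Counted by whether the 3 libraries of each group overlapped, 5 of the 6 genes did not overlap between the genotypes on vehicle, 3 lower and 2 higher (Ngfr and Nrn1). Over all genes 27.3% did not overlap there. For clozapine in wild type it was 2 of 6, Bdnf and Ntrk2, both lower, beside 15.6% of all genes. It was 0 of 6 for clozapine in the labelled knockout (18.7% of all genes) and 1 of 6, Nrn1, between the genotypes on clozapine (22.5%).

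Over the 12 libraries the levels of the members ran in different ways. Log2 CPM of Ntrk2 and Ntrk3 had a Pearson r of 0.81 (0.60 after the mean of each group was taken off), and that of Bdnf and Ntrk2 was 0.67 (0.54 within groups). Bdnf and Ngfr ran opposite, with r of -0.88 (-0.78 within groups), where Ngfr rests on only 10 to 34 counts per library. These are descriptions over 12 libraries in 4 groups that share depth and scaling. Of 13225 genes (13226 for Ntf3) with a mean of at least 1 CPM, the 3 most like Bdnf were Rnf4, the gene of a ubiquitin ligase (r 0.96), Mir212, the gene of a microRNA precursor (0.95), and Stt3b, a subunit of the enzyme that attaches glycans to proteins (0.94). Those most like Ntrk2 were Plxnc1, Ptprj and Dip2c (0.95 to 0.94). Those most like Ntrk3 were Srcin1, Fam120b and Eif4enif1 (0.96 to 0.95). For Nrn1 they were Psma4, Nanp and Klc3 (0.92 to 0.90), for Ngfr Tob2, Babam1 and Atp8b2 (0.94 to 0.90), and for Ntf3 Mplkip, Tgfb1 and Hes5 (0.84 to 0.82).

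Around the members, the ligands and receptors of the family were counted as a list of 14 genes, the 6 members among them, of which 11 were tested. Beside Bdnf, Ntrk2 and Ntrk3, Sorcs3, a sorting receptor of the sortilin family, fell in the labelled knockout on vehicle (log2 difference -0.29, edgeR adjusted p = 0.028). That makes 4 of 11 lower and 0 higher, with a median of -0.15 where the median of all genes was 0.004. Over all genes 5.15% were lower and 4.01% higher there. Bdnf, Ntrk2 and Ntrk3 are the members described above, so Sorcs3 is the only addition. Sort1, the gene of sortilin, which carries precursor neurotrophins, was at -0.15 (adjusted p = 0.067). In the other comparisons Bdnf for clozapine in wild type and Bdnf for the averaged genotype effect were the only genes of the list that passed.

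Of 14 tested genes that cut and carry precursor neurotrophins, 1 rose and 1 fell in the labelled knockout on vehicle (median -0.02), near the shares over all genes (4.01% higher and 5.15% lower). Hap1, which helps to transport vesicles that hold precursor BDNF, rose from 77.9 ± 6.05 CPM in wild type to 118 ± 2.98 CPM in the labelled knockout (SD, n = 3 each, log2 difference 0.60, edgeR adjusted p = 0.00021). It was also higher on clozapine (0.35, adjusted p = 0.024). Pcsk1, a protease of secretory granules, fell from 50.0 ± 5.87 to 25.1 ± 5.67 CPM on vehicle (log2 difference -1.0, adjusted p = 0.038), but passed in only 4 of the 12 tests that left out 1 library. Averaged over treatments, Pcsk2, a related protease, was higher by 0.16 (adjusted p = 0.024).

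Of 41 tested adaptors and kinases downstream of the Trk receptors, 6 fell and 0 rose in the labelled knockout on vehicle, and the others did not pass (median -0.08). Over all genes 5.15% were lower and 4.01% higher there. Rapgef1, an exchange factor that prolongs signalling by Rap1, fell by 0.32 (edgeR adjusted p = 0.0017), and Shc3, an adaptor of neurons that binds Trk receptors, by 0.50 (adjusted p = 0.0053). Irs2 and Irs1, adaptors shared with the insulin receptor, fell by 0.65 and 0.49 (adjusted p = 0.033 and 0.040). Sh2b1, an adaptor of Trk receptors, fell by 0.21 and Pik3ca, a catalytic subunit of phosphoinositide kinase, also by 0.21 (adjusted p = 0.019 and 0.024). With 1 library left out, Rapgef1 and Shc3 passed in all 12 tests, Irs2 and Sh2b1 in 8, Pik3ca in 7 and Irs1 in 6. The Irs2 call ended without knockout vehicle 2 or 5 (edgeR adjusted p = 0.104 and 0.101) and without wild-type vehicle 1 or 3 (0.0879 and 0.116). Without wild-type vehicle 3, Irs1 was at -0.34 (adjusted p = 0.203), and without knockout vehicle 5 at -0.33 (adjusted p = 0.159).

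The adaptor Sh2b2 had another pattern. It stood at 8.59 ± 0.19 CPM in wild type on vehicle, 5.90 ± 0.43 with clozapine, and 7.81 ± 0.66 and 9.32 ± 0.10 in the labelled knockout (SD, n = 3 each). It fell with clozapine in wild type (-0.54, edgeR adjusted p = 0.013) and was the only 1 of the 41 to pass there, beside 0.625% of all genes lower. On clozapine 2 of the 41 were higher in the labelled knockout, Sh2b2 (0.66, adjusted p = 0.0020) and Hras (0.23, adjusted p = 0.025), and 0 were lower. Over all genes 1.48% were higher and 0.515% lower there. In the interaction 4 of the 41 passed, all higher, namely Sh2b2, Shc3, Kidins220 and Rapgef1 (0.80, 0.66, 0.35 and 0.37). Over all genes 0.526% were higher and 0.127% lower in the interaction. The Sh2b2 call held in 8, the Shc3 call in 3 and the Kidins220 and Rapgef1 calls in 5 of the 12 tests without 1 library.

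Among 20 genes that sort or turn over Trk receptors or limit their signal, 2 fell in the labelled knockout on vehicle, Nedd4l, a ubiquitin ligase (-0.27, edgeR adjusted p = 0.010), and Spry2, an inhibitor of receptor tyrosine kinase signalling (-0.22, adjusted p = 0.030), with a list median of -0.10, beside 5.15% of all genes lower. Nedd4l passed in all 12 tests without 1 library and Spry2 in 8. Among 20 partners and targets of p75, Lingo1 and Rtn4r, which form a receptor for myelin proteins together with p75, both fell with clozapine in wild type (-0.38 and -0.23, adjusted p = 0.012 and 0.042). Of all genes 0.625% fell there. On clozapine Lingo1 and Rtn4r were both higher in the labelled knockout (0.33 and 0.30, adjusted p = 0.016 and 0.0060), where 1.48% of all genes were higher and 0.515% lower. On vehicle 1 of the 20 was higher, Bex1 (0.38, adjusted p = 0.043), and 1 lower, the kinase gene Rock2 (-0.25, adjusted p = 0.048), near the shares over all genes. The Rtn4r call with clozapine held in 2, the Rock2 call in 3 and the Bex1 call in 5 of the 12 tests without 1 library.

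Of 25 tested genes of proteins that regulate Bdnf transcription, 6 fell and 1 rose in the labelled knockout on vehicle (median -0.05), where 5.15% of all genes were lower and 4.01% higher. Crem, a factor that binds cAMP response elements, fell by 0.63 (edgeR adjusted p = 0.0083), Crtc1, a coactivator of CREB, by 0.27 (0.0056) and Crebbp, a histone acetyltransferase that binds CREB, by 0.25 (0.027). The DNA methyltransferase gene Dnmt3a fell by 0.27 (0.015) and Mef2d, a factor driven by activity, by 0.23 (0.028). Sin3a, the scaffold of a complex that holds histone deacetylases, rose by 0.23 (0.027). Without 1 library Crem and Crtc1 passed in all 12 tests, Dnmt3a in 10, Crebbp in 9, Mef2d in 8 and Sin3a in 7. With clozapine 0 of the 25 passed by edgeR in wild type, where 4 had an unadjusted p under 0.05 and DESeq2 called 1, and 0 in the labelled knockout, where these counts were 8 and 1.

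Of 20 tested genes that BDNF is known to induce, 4 were lower in the labelled knockout on vehicle and 0 higher (median -0.42), Bdnf itself among them, beside 5.15% of all genes lower and 4.01% higher. Homer1, a scaffold of excitatory synapses with a short form induced by activity, went from 398 ± 51.7 to 185 ± 23.2 CPM (SD, n = 3 each, log2 difference -1.10, edgeR adjusted p = 0.013). The activity-induced factors Egr3 and Fosb fell by 0.99 and 0.83 (adjusted p = 0.012 and 0.021). Without 1 library Egr3 passed in all 12 tests, Homer1 in 10 and Fosb in 8. Averaged over treatments 6 of 20 were lower, with Fos (-0.68, adjusted p = 0.017) and Egr1 (-0.47, adjusted p = 0.019) in addition. Arc and Npas4, also induced by activity, were both at -0.63 on vehicle and did not pass (adjusted p = 0.25 and 0.49).

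With clozapine in wild type 2 of these 20 fell, Bdnf and Vgf, a secreted protein of dense-core granules, whose mean was 523 ± 19.3 CPM on vehicle and 342 ± 32.5 CPM on clozapine (SD, n = 3 each; the log2 change was -0.62, edgeR adjusted p = 0.0028). Of all genes 0.625% fell and 0.191% rose in that comparison. Vgf passed in all 12 tests without 1 library. It was the only gene of the pathway lists to pass in the clozapine effect averaged over genotypes (-0.42, adjusted p = 0.011), where 0.0983% of all genes rose and 0.0521% fell. In the averaged genotype effect 5.52% of all genes were higher and 5.01% lower.

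Some genes of the pathway lists passed in the averaged genotype effect alone. Creb1, the gene of the activity-driven factor CREB, was lower in the labelled knockout by 0.16 (edgeR adjusted p = 0.018). Pik3r1, a regulatory subunit of phosphoinositide kinase, was lower by 0.14 (adjusted p = 0.026) and the phosphatase gene Ptpn2 by 0.20 (adjusted p = 0.025). Bex3, a partner of p75, was higher by 0.14 (adjusted p = 0.041). The Ptpn2, Pik3r1 and Bex3 calls held in 4, 5 and 3 of the 12 tests without 1 library.

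Leaving out wild-type vehicle 3 ended 5 of the 6 calls of members and list genes for clozapine in wild type. Leaving out wild-type clozapine 5 also ended 5 of these 6, and Vgf was the one that held each time. On vehicle, leaving out wild-type vehicle 3 ended 17 of the 30 calls, and leaving out knockout vehicle 5 also ended 17. Without wild-type vehicle 3 or without knockout vehicle 5, Bdnf and Ntrk2 still passed on vehicle.

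**Figure D4:**
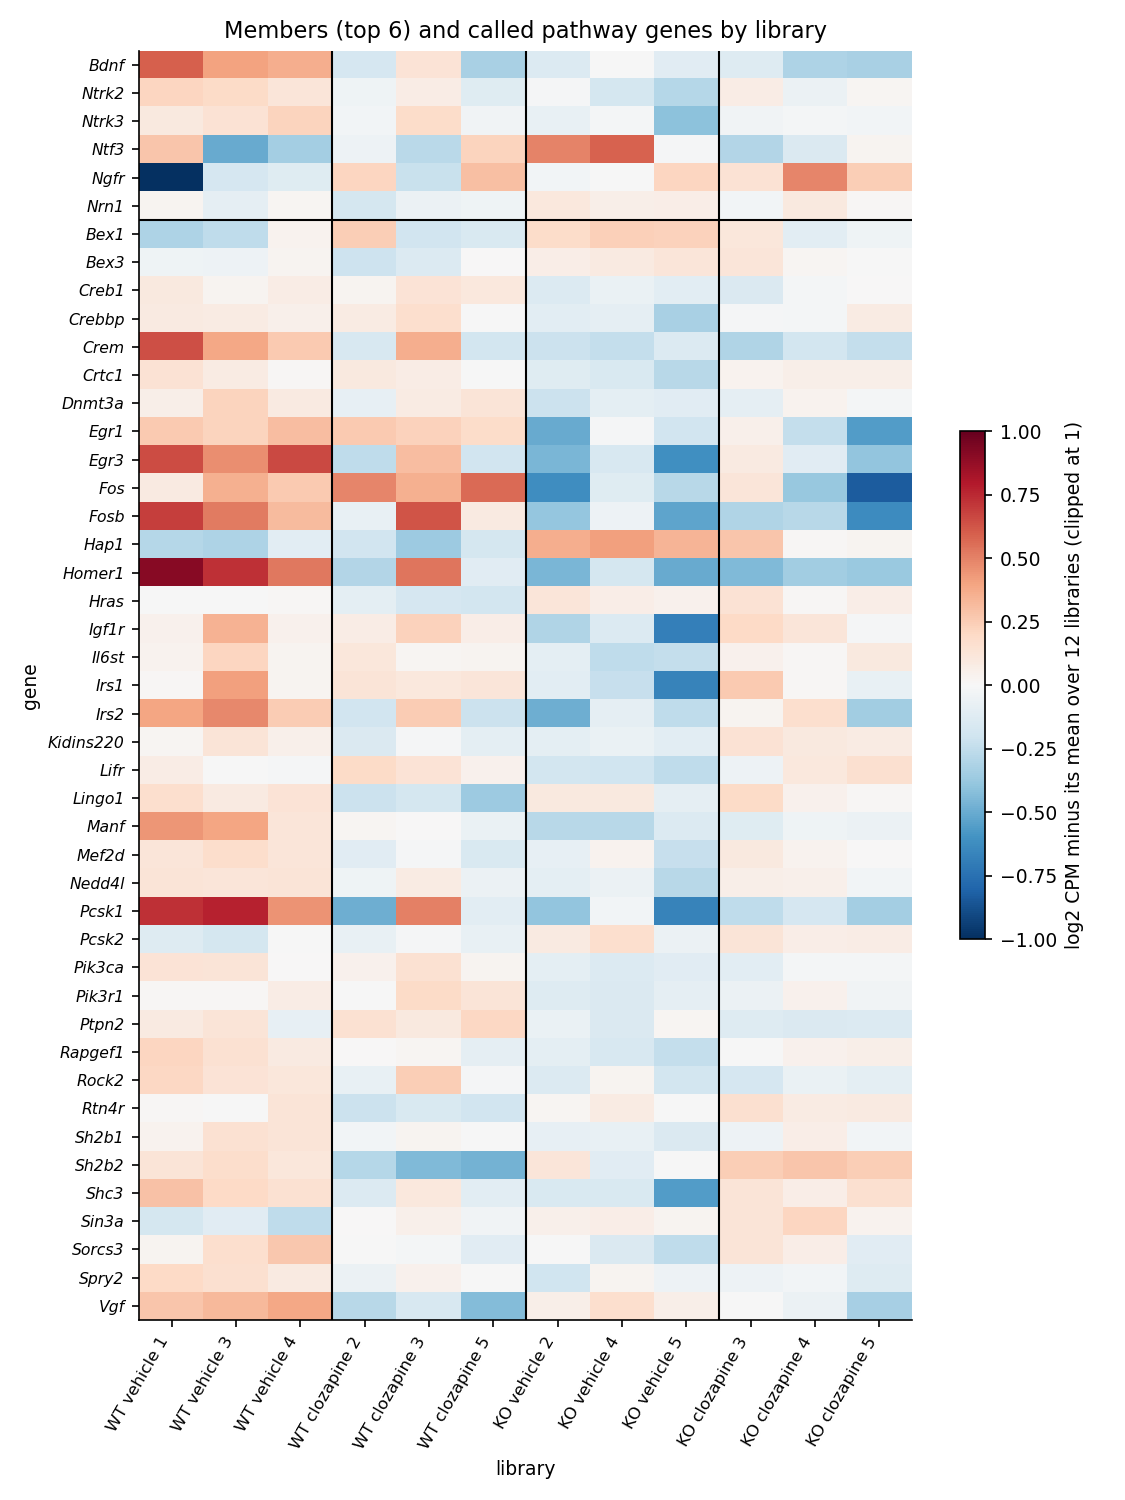
Log2 CPM minus its mean over the 12 libraries (colour, red higher and blue lower, limited at 1) for the 6 members above the black line and for other pathway genes that passed in at least 1 of the 7 comparisons (rows), by library (columns, 4 groups split by lines). Bdnf, Ntrk2, Homer1 and Crem are red in the wild-type vehicle columns, and for Bdnf wild-type clozapine 3, at 33.9 CPM, is the nearest of the other columns. Homer1 and Crem are higher in wild-type clozapine 3 (0.534 and 0.3604) than in wild-type vehicle 4 (0.5312 and 0.2597).

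Markers of other cells were summed beside these results, and their part in them was not tested. The 8 excitatory neuron markers, of the cells that make most Bdnf, summed to 8821 to 9760 CPM in wild-type vehicle and 8344 to 8612 CPM in wild-type clozapine, so they were lower without overlap where Bdnf fell with clozapine. They summed to 8306 to 9055 CPM in knockout vehicle, which overlaps wild-type vehicle, and to 9418 to 9802 CPM in knockout clozapine. By edgeR 0 of these 8 passed for clozapine in wild type, and 0 between the genotypes on vehicle, with 1 and 3 at an unadjusted p under 0.05 and 0 by DESeq2 in both. Their median log2 change with clozapine in wild type was -0.07. Camk2a, Nrgn and Slc17a7, at means of 4077, 2789 and 1691 CPM over the 12 libraries, make up most of these sums. The sum of the 12 interneuron markers was also lower without overlap with clozapine in wild type, at 1546 to 1674 CPM against 1513 to 1537 CPM. By edgeR 0 of these 12 passed, with 2 at an unadjusted p under 0.05 and 0 by DESeq2, and their median log2 change was -0.001. Counted gene by gene, 15.6% of all genes did not overlap in that comparison.

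The 10 markers of astrocytes, cells that make Ntrk2, summed to 3509 to 3962 CPM in wild-type vehicle and 3268 to 3720 CPM in knockout vehicle, which overlap. By edgeR 0 of 10 passed there, with 0 at an unadjusted p under 0.05 and 0 by DESeq2. Red blood cell genes summed to 138 to 180 CPM in wild-type vehicle and 212 to 437 CPM in wild-type clozapine, without overlap, while 0 of 5 passed by edgeR, with 2 at an unadjusted p under 0.05 and 0 by DESeq2. The 4 tested choroid plexus markers summed to 4.35 to 60.1 CPM in wild-type vehicle and to at most 9.71 CPM elsewhere.

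The 8 markers of striatal projection neurons summed to 298 to 369 CPM in wild type on vehicle and 277 to 291 CPM in the labelled knockout. Of these 8 genes 2 fell, Pde10a among them (-0.95, edgeR adjusted p = 0.023), while the list median was -0.07. Over all genes 5.15% were lower and 4.01% higher on vehicle. The 6 markers of upper layers summed to 1118 to 1318 CPM in wild type and 1053 to 1136 CPM in the labelled knockout, which overlap, and Cux2 and Rasgrf2 fell (-0.32 and -0.22, adjusted p = 0.0056 and 0.025), and Cux2 also fell with clozapine in wild type (-0.29, adjusted p = 0.042). Of 11 markers of deep layers 1 rose, and their sums overlapped, at 212 to 321 and 299 to 380 CPM. Of 6 tested genes of the hippocampus and retrosplenial cortex 2 rose on vehicle, summing to 1085 to 1185 CPM in wild type and 1304 to 1458 CPM in the labelled knockout. Nptxr, at a mean of 1168 CPM over the 12 libraries, makes up most of that sum.

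Between the genotypes on clozapine, where Sh2b2, Hras, Hap1, Lingo1 and Rtn4r were higher, some cell markers passed as well. Over all genes 1.48% were higher and 0.515% lower there. Camk2a was higher by 0.26 (edgeR adjusted p = 0.038), the only 1 of 8 excitatory markers to pass (list median 0.01). Cux2 was higher by 0.29 (adjusted p = 0.028), the only 1 of 6 upper-layer markers to pass (list median 0.06). Of 6 tested hippocampal and retrosplenial genes 3 were higher (list median 0.22). They were Nptxr by 0.57, Rgs14 by 0.38 and Lct by 1.25 (adjusted p = 0.00048, 0.016 and 0.039). Of 10 oligodendrocyte markers 1 passed, Ermn, which was lower, with a log2 difference of -0.71 (adjusted p = 0.021, list median -0.25). The part of these cell markers in the other differences was not tested.

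Among the other cell lists 1 of 9 microglial markers rose on vehicle, with sums of 303 to 339 CPM in wild type and 340 to 359 CPM in the labelled knockout. Of 8 endothelial markers 1 rose and 2 fell, of 7 markers of oligodendrocyte precursors 1 rose and 1 fell, and of 4 tested markers of claustrum and insula 1 rose. Over all genes 4.01% were higher and 5.15% lower in that comparison. The sums of oligodendrocyte, mural and meningeal markers overlapped between the genotypes on vehicle, at 1690 to 2002 against 1653 to 1873 CPM, 216 to 240 against 205 to 231 CPM, and 131 to 157 against 117 to 187 CPM.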

How the data were processed

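RNA of 12 frontal cortex libraries was measured, 3 per group. The table the authors deposited holds an estimated count for each gene and library, and 7.39% of its values are not whole. Per the submitters' processing notes, the authors aligned reads to GRCm38 with STAR 2.5.1b and counted them with featureCounts. How shared reads were split and whether strand was used are not given in the sources used here, so values of overlapping genes are uncertain. Gm45346, which lies antisense to Bdnf and shares 896 exonic bases with it, is not analysed here.

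Counts were rounded, although whole counts had been assumed in the design. Identifiers were matched to GENCODE mouse release 21. Genes kept by filterByExpr (17286) hold 99.9% of counts, and totals of 23408372 to 28069638 leave the spread between libraries as the main error, except for Ntf3 and Ngfr. One fit of all 12 libraries used edgeR 4.0.16 in R 4.3.3, scaled by TMM, with robust quasi-likelihood dispersions and BH adjustment, for 7 contrasts. CPM use TMM-scaled library sizes, RPKM also the summed exon length. The scripts were tested on simulated data. The p-values measure the spread between libraries of a group, which the design text counts as mice.

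The 6 members, 8 pathway lists and 17 cell lists, and the rule for the genes named, were chosen with earlier results of these data known. That rule names the members, each list gene past the threshold in any contrast, and the 3 genes most like each member. Some list genes are counted in the lists but not reported here by name. Alternatives were DESeq2 1.42.0, limma-voom (limma 3.58.1), RLE size factors, no low-count filter, a mean CPM of at least 1, unrounded counts, a replicate block, the groups compared alone, a threshold of 0.10, a correction for length and GC content, and leaving out each library.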

Additional observations from a re-analysis of the deposited data

Results flagged for a closer look

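For 6 genes of the pathway lists the clozapine effect differed between the genotypes as labelled, by the interaction term of the same edgeR fit with BH adjustment. Over all genes this effect was higher in the labelled knockout for 0.526% and lower for 0.127%. Sh2b2, an adaptor of Trk receptors, had a difference of 0.80 on the log2 scale (adjusted p = 0.018), from a change of -0.54 in wild type and 0.26 in the labelled knockout. Shc3, another Trk adaptor, had a difference of 0.66 (adjusted p = 0.039), from means of 36.5 ± 1.91 CPM on vehicle and 30.5 ± 2.91 CPM on clozapine in wild type and of 25.9 ± 4.02 and 34.1 ± 1.11 CPM in the mice labelled knockout (SD, n = 3 each). Kidins220, a scaffold of Trk receptors, had a difference of 0.35 (adjusted p = 0.034), and Rapgef1 one of 0.37 (adjusted p = 0.036). Lingo1, a partner of p75, had a difference of 0.42 (adjusted p = 0.048), and Manf, a secreted factor of the endoplasmic reticulum with neurotrophic effects, one of 0.49 (adjusted p = 0.043). All 6 were lower with clozapine in wild type and higher in the labelled knockout as fitted values. In the 12 tests without 1 library, Sh2b2 passed 8 times, Kidins220 and Rapgef1 5 times each, Shc3 3 times, and Lingo1 and Manf 1 time each. All 6 calls ended without wild-type vehicle 3, and likewise without wild-type clozapine 5, knockout clozapine 4 or knockout clozapine 5. None of the 6 neurotrophin genes passed this test by edgeR. At an unadjusted p under 0.05 the interaction held 2345 genes, Bdnf and Ntrk2 among them.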

How the results depend on the processing

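Over all alternatives the 6 genes gave 890 values, of which 839 kept direction and side of the threshold, 15 lost a call, 20 gained one and 16 changed sign, none of the latter being a call. The called genes of the pathway lists gave 1507 values, with 337 calls lost and 0 changes of sign. DESeq2 called 288 genes for clozapine in wild type, 274 in the labelled knockout, 560 between genotypes on clozapine, 354 in the interaction and 166 for the averaged clozapine effect. No low-count filter gave 304, 213, 566, 302 and 157 in that order, and a threshold of 0.10 gave 260, 113, 697, 258 and 65, with 2480 between genotypes on vehicle and 2782 for the averaged genotype effect. With each of these 3 settings 1 of the 6 passed in the interaction (Ntrk2) and 1 in the averaged clozapine effect (Bdnf), and 3, 3 and 4 in the averaged genotype effect. In the labelled knockout limma-voom, RLE size factors and the length and GC correction each called 2 genes, and the 2 groups alone 7. That correction gave 62 in the interaction, put Ntrk3 at -0.18 on vehicle, and turned its clozapine effect to -0.033 in the labelled knockout and -0.091 averaged. The 2 groups alone called 92 genes for clozapine in wild type and 0 of the 6, with Bdnf at -0.57, and put Ntrk3 on vehicle at -0.31. The cause of these changes was not tested.

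The replicate numbers are not said to tie libraries to each other. Deviations from the group means correlated between -0.08 and 0.12 in the 10 pairs of equal number, 1 of them over 0.1, and 3 of 11 libraries correlated best with their own number. With a replicate block the calls were 18 for clozapine in wild type, 174 in the labelled knockout, 385 between genotypes on vehicle, 12 in the interaction and 61 for the averaged clozapine effect. Of the 6, 0 passed with the block for clozapine in wild type (Bdnf -0.39) and 0 on vehicle (Bdnf -0.31, Ntrk2 -0.28, Ntrk3 -0.27), and 1 in the averaged clozapine effect (Bdnf). Signs turned with the block for Ngfr (0.11) and Nrn1 (-0.016) in the interaction and Ntf3 (0.0083) in the averaged clozapine effect.

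Leaving out 1 library gave 20 (without wild-type vehicle 3) to 219 genes for clozapine in wild type, 0 to 25 in the labelled knockout, 617 to 1722 between genotypes on vehicle, 59 to 425 on clozapine, 13 to 181 in the interaction, and 2 to 24 and 1152 to 1870 in the averaged effects. Of the 6, 0 to 1 passed for clozapine in wild type, in the interaction and in the averaged clozapine effect, 2 to 3 on vehicle, and 1 to 3 in the averaged genotype effect. Bdnf ranged from -0.70 to -0.47 for clozapine in wild type and Ntrk3 from -0.39 to -0.20 on vehicle. Signs turned for Ntf3 with clozapine in wild type (-0.0061 to 0.48), between genotypes on clozapine for Ntrk3 (-0.11 to 0.0041), Ntrk2 (-0.0033 to 0.093) and Ntf3 (-0.26 to 0.027), for Nrn1 in the interaction (-0.0015 to 0.071), and in the averaged clozapine effect for Ntrk3 (-0.047 to 0.048) and Ntrk2 (-0.049 to 0.019). Depth limits Ntf3 and Ngfr, at 9 to 34 counts per library.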

Other observations

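Neurotrophic factors of other families were counted as a list of 24 genes, of which 22 were tested. In the labelled knockout on vehicle 4 fell and 0 rose, where 5.15% of all genes were lower and 4.01% higher. Manf went from 43.9 ± 5.08 to 29.9 ± 1.65 CPM (SD, n = 3 each, log2 difference -0.55, edgeR adjusted p = 0.00042), and this call held in all 12 tests without 1 library. Igf1r, the receptor of insulin-like growth factor, fell by 0.51 (edgeR adjusted p = 0.019). Il6st and Lifr, receptor chains shared by ciliary neurotrophic factor and related cytokines, fell by 0.29 and 0.23 (edgeR adjusted p = 0.0067 and 0.030). Without 1 library Il6st passed in all 12 tests, Igf1r in 11 and Lifr in 6. With clozapine in wild type 1 of the 22 fell, Manf (-0.34, edgeR adjusted p = 0.044), beside 0.625% of all genes. This Manf call held in 3 of the 12 tests without 1 library.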
